A study of Mus musculus with 7 samples.

Results

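Eph receptors are receptor tyrosine kinases and ephrins are their membrane-bound ligands, and 10 genes of this family were examined in mouse reprogramming cultures and in naive and primed pluripotent cells. The 10 genes were 6 receptors (Epha1, Epha2, Epha4, Ephb2, Ephb3 and Ephb4) and 4 ephrins (Efna1, Efna3, Efnb1 and Efnb2), out of 29267 genes in the tables and 22 genes of the whole family. They were found by gene symbol, and the list itself was selected on levels and differences measured in these same libraries. No level separated them from the rest of the family, since the lowest peak among them was 17.2 TPM (transcript abundance per length, scaled to the library) for Ephb2, while Efna4, which was left out, peaked at 36.2 TPM. Their values are therefore given as a description, with no test.

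The study asked how 5C medium, a serum-free medium, changes reprogramming of fibroblasts to pluripotency. RNA was sequenced from 7 groups with 1 library each. With no replicate in any group, the spread between cultures is unknown and no test of a difference between groups was possible. Every interval below is a 95% interval that covers counting error only. In 6 groups the cells descended from OG2 mouse embryonic fibroblasts, taken from mid-gestation embryos, which carry Oct4GFP, a green fluorescent reporter driven by an Oct4 promoter that is switched on in pluripotent cells. All 6 had received Oct4, Sox2, Klf4 and c-Myc by retrovirus. The mES-Oct4GFP+ and mES-Oct4GFP- groups were cells sorted on day 15 from cultures in mES medium (DMEM with serum, LIF and vitamin C). The 5C-Oct4GFP+ and 5C-Oct4GFP- groups were sorted on the same day from 5C medium (DMEM/F12 with N2, β-mercaptoethanol, bFGF, LIF and vitamin C). Cells of the 5C-Oct4GFP+ kind were also carried in naive medium, with LIF and 2 inhibitors, to give 5C-Oct4GFP+ (naive), or in primed medium, with bFGF and activin A, to give 5C-Oct4GFP+ (primed), and both are labelled with 20 passages. Conversion in these media is also described in days, so how long these cells had spent in them is not certain. By the study's account the cells in primed medium no longer showed GFP fluorescence, so the plus sign in that name marks their origin. R1 ESCs-primed, also at 20 passages, came from the embryonic stem cell line R1 and were brought to the primed state on a layer of fibroblast feeders, after which they were kept on serum-coated plates with CHIR99021 and IWR-1. They carried no reprogramming virus. No library of unreprogrammed fibroblasts or of naive R1 cells was analysed here.

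Ephs and ephrins signal where cells touch. Ephrin-A ligands are held in the membrane by a lipid anchor and mostly bind EphA receptors, whereas ephrin-B ligands span the membrane and mostly bind EphB receptors, and ligand-bearing cells can themselves be signalled to. The family is known for keeping cell populations apart, for guiding axons and vessels, and for sorting epithelial cells along their layers, and in the early embryo several members are found at gastrulation.

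Expected counts, the number of reads assigned to genes by estimation, summed to between 6108252 and 11496615 per library, so that for a gene of median length 1 read gave 0.0955 TPM in the deepest library and 0.182 in the shallowest. All 10 genes were at or above 1 TPM with reads in every library, and the lowest expected count among them was 11. Marker genes separated the groups broadly as labelled. The summed TPM of 8 naive markers was 2432 in mES-Oct4GFP+, 2255 in 5C-Oct4GFP+ (naive) and 1124 in 5C-Oct4GFP+, and between 86.6 and 195 in the other 4 libraries. Nanog made up most of this sum in 5C-Oct4GFP+ (primed), at 118 of 126 TPM, and in R1 ESCs-primed, at 131 of 154 TPM. The sum of 8 primed markers was 1359 in 5C-Oct4GFP+ (primed), 1194 in R1 ESCs-primed and 368 in 5C-Oct4GFP+, and between 86.8 and 157 elsewhere. The 5C-Oct4GFP+ sum came mostly from Otx2 (189 TPM) and Zic2 (103 TPM), with T, Cer1 and Foxa2 at most at 0.25 TPM. Fibroblast markers (8 genes) summed to 579 TPM in mES-Oct4GFP-, 258 in 5C-Oct4GFP-, 203 in R1 ESCs-primed and 70.7 in 5C-Oct4GFP+ (primed), against 8.16 to 13.5 in the remaining 3. Keratinocyte-type markers (5 genes) summed to 327 TPM in mES-Oct4GFP-, with 250 for the 5C-Oct4GFP- and 127 for the 5C-Oct4GFP+ library, and to at most 2.85 elsewhere. In 5C-Oct4GFP+ nearly all of that sum was Krt17, at 121 TPM, while Krt5, Krt14, Krt6a and Trp63 were at most at 2.82. Pou5f1, the gene of Oct4, was highest in mES-Oct4GFP- at 3640 TPM, against 1321 in mES-Oct4GFP+, and whether reads of the retroviral copy entered its count was not tested.

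The start-site regions of 5 members are shown because these are the members that differed at least 2-fold between naive and primed cells. Epha1, Epha2, Ephb2 and Efnb2 were higher in primed cells, and Epha4 was lower. Each sequence runs from 250 bases before the start to 50 bases after it, in the direction of the gene, from the RefSeq annotation of build GRCm38.p6. Capitals mark CAGGTG or its reverse complement CACCTG, the E-box bound by factors of the Snail and Zeb type.
Epha1, chr6:42373219-42373518, minus strand: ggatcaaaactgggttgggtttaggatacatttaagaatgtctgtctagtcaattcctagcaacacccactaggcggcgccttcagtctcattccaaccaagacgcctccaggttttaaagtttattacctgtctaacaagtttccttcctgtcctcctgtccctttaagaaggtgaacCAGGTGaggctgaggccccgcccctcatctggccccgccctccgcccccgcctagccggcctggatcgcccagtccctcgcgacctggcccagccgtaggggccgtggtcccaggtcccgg
Epha2, chr4:141300971-141301270, plus strand: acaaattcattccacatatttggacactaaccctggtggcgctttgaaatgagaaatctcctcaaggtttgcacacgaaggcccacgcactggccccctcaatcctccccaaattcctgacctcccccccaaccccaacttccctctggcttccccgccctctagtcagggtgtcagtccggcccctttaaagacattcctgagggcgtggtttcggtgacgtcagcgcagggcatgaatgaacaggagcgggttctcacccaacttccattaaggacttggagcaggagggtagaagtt
Ephb2, chr4:136835963-136836262, minus strand: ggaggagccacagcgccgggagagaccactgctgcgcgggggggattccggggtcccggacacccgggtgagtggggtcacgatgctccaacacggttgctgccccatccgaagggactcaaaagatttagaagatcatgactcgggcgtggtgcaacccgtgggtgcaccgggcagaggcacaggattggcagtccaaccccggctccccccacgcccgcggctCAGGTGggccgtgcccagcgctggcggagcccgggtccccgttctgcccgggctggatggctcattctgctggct
Efnb2, chr8:8661193-8661492, minus strand: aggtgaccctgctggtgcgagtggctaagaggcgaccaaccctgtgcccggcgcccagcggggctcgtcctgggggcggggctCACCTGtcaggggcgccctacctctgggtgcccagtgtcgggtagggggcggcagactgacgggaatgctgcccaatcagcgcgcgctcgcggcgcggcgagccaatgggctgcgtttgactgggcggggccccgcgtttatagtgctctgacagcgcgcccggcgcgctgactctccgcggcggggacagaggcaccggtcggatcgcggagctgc
Epha4, chr1:77515039-77515338, minus strand: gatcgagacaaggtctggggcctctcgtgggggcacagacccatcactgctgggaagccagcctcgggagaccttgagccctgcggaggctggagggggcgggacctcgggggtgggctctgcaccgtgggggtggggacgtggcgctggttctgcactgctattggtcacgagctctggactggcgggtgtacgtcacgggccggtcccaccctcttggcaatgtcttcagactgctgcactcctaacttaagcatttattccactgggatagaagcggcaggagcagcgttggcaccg

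The 10 members had 12 such windows, since Efna1 and Efna3 each had more than 1. This E-box was in 3 of the 12 windows, those of 3 members. The same 6 letters, read on both strands, occurred in 20.2% of 32851 mouse promoters of the same length. In Epha1 the first letter lay at position -71 from the start, in Ephb2 at -25 and in Efnb2, as CACCTG, at -167. Neither the window of Epha2, a higher gene, nor that of Epha4, the lower one, held a match. The motif was chosen with the levels known, and a match describes letters only. The GC box GGGCGG was in 10 of the 12 windows, those of 8 members, and in 35.7% of all promoters. The Tcf and Lef core CTTTGA was in that of Epha2 and in 16% of all. No member window held TAATCC (7.06% of promoters), AAGGTCA (4.72%), ATGCAAAT (1.74%) or AGGTGTGA (1.28%). The Efnb2 window was 72.3% G or C with 35 CG pairs, and that of Epha1 was 58% with 14, against medians of 52.7% and 7 over all promoters.

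Among the EphA receptors, Epha1 spanned the widest range of the 10 genes, 5.96 on the log2(TPM + 1) scale. This receptor was the first of the family to be described. It was at 1.03 TPM in mES-Oct4GFP+, 2.17 in 5C-Oct4GFP+ (naive), 11.7 in 5C-Oct4GFP+, 15.1 in 5C-Oct4GFP-, 18.7 in mES-Oct4GFP-, and in the primed state at 109 for 5C-Oct4GFP+ (primed) and 125 for R1 ESCs-primed. Both primed libraries therefore stood far above the rest, both naive-type libraries were lowest, and the other 3 lay between. Every step in this order exceeded its counting interval, down to the step from 1.03 to 2.17 TPM, where the interval of the ratio was 1.04 to 4.62. The gene lies at chr6:42358487-42373268 on the minus strand of GRCm38, and 160 of its 3273 exonic bases (4.89%) also belong to Zyx on the other strand. Zyx, which encodes the focal adhesion protein zyxin, was at 3.40 TPM in 5C-Oct4GFP+ (naive) and 152 in 5C-Oct4GFP+ (primed), moving in the same direction as Epha1. The library kit named in the labels does not mark strand, so reads from the shared bases cannot be told apart.

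Epha2, a receptor well known from epithelial cells, was at high levels throughout. Its level was 158 TPM in 5C-Oct4GFP+ (primed), 146 in R1 ESCs-primed, 133 in 5C-Oct4GFP+ and 109 in mES-Oct4GFP-, then 41.9 in mES-Oct4GFP+, 40.1 in 5C-Oct4GFP+ (naive) and 39.4 in 5C-Oct4GFP-. These fell into an upper set of 4 libraries and a lower set of 3. Within the lower set, the intervals of the ratios between neighbours included 1.

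Epha4, a receptor that binds ephrins of both classes and is known from axon guidance, had a contrary order. It reached 57.2 TPM in mES-Oct4GFP+, 43.9 in 5C-Oct4GFP+ (naive) and 37.2 in 5C-Oct4GFP+, and stood at 9.29 in mES-Oct4GFP-, 7.52 in 5C-Oct4GFP+ (primed), 6.06 in R1 ESCs-primed and 5.63 in 5C-Oct4GFP-. The 3 libraries with the largest summed naive markers were thus the 3 with the most Epha4. The lower 4 formed a run in which no neighbouring pair differed beyond counting error. Its ends did differ, with 5C-Oct4GFP- at 0.606 of mES-Oct4GFP- (0.485 to 0.755). TPM depends on the transcript length that the counting assigned, and for Epha4 this average length was 2820 bases in 5C-Oct4GFP+ (primed) but 5327 to 5911 bases in the other 6 libraries. On length-free counts (expected counts divided by the library total), the difference between primed and naive cells went from -2.40 to -3.59 on the log2 scale, and that between 5C-Oct4GFP+ (primed) and R1 ESCs-primed turned from 0.27 to -0.69. The step from mES-Oct4GFP- to 5C-Oct4GFP+ (primed) and the one after it in the order above therefore depend on that length.

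**Figure D1:**
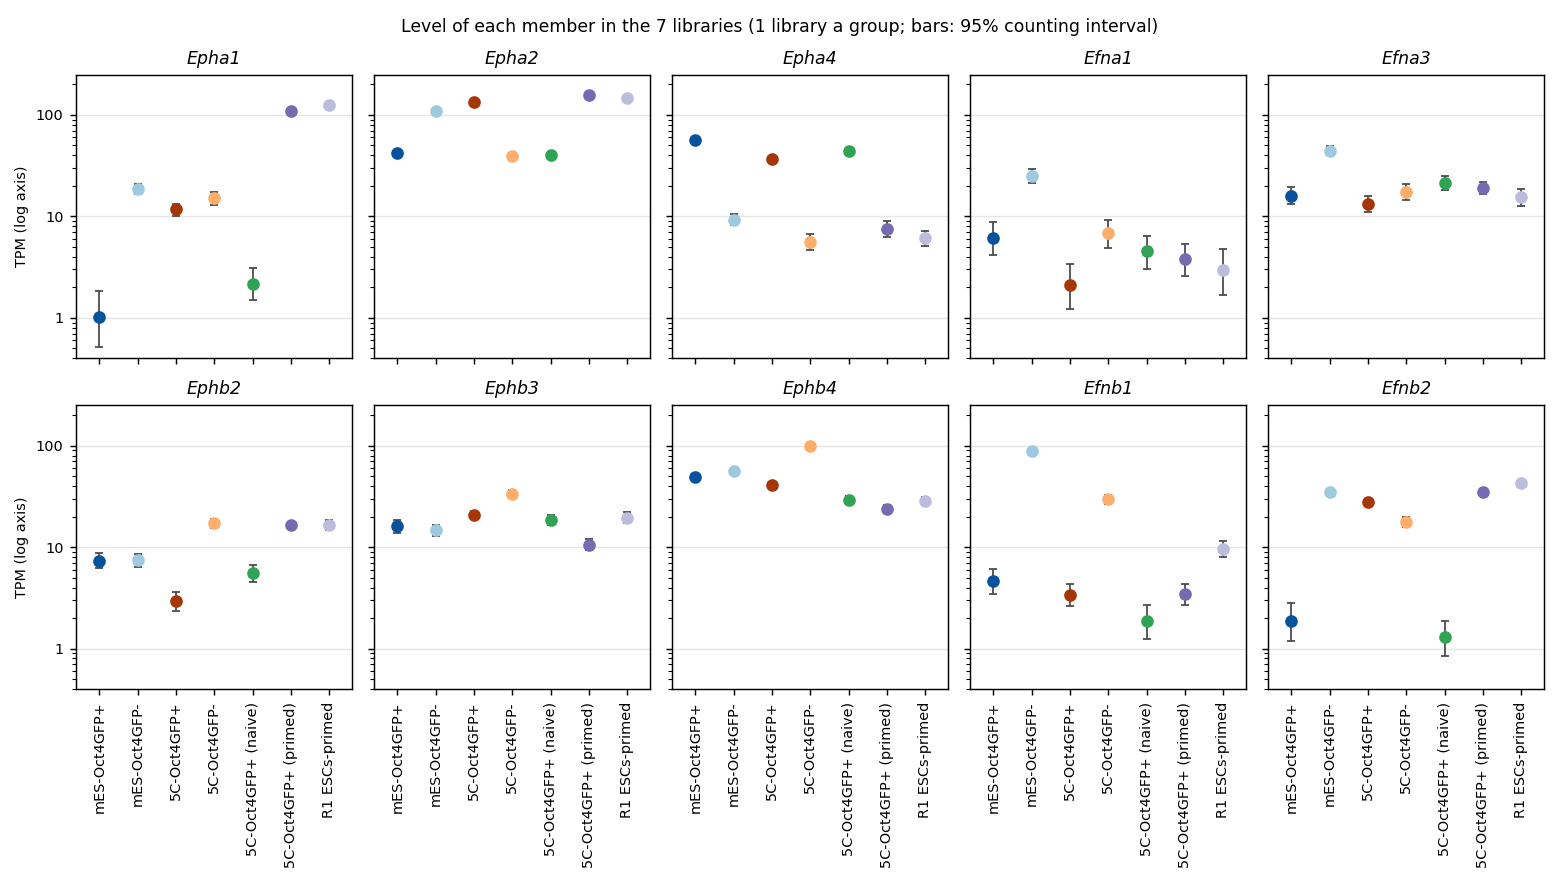
Level of each of the 10 genes (TPM, log axis) in the 7 libraries, 1 point per library, with bars for the 95% counting interval. Epha1 runs from 1.03 to 125 TPM with both primed libraries on top, Epha4 is highest in mES-Oct4GFP+ at 57.2 TPM, and Efnb1 is highest in mES-Oct4GFP- at 88.9 TPM.

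Of the EphB receptors, Ephb2, which positions cells in the intestinal crypt, was at 17.2 TPM in 5C-Oct4GFP-, 16.6 in R1 ESCs-primed and 16.4 in 5C-Oct4GFP+ (primed), at 7.46 in mES-Oct4GFP- and 7.37 in mES-Oct4GFP+, and at 5.54 in 5C-Oct4GFP+ (naive) and 2.96 in 5C-Oct4GFP+. Among the upper 3 libraries no neighbouring pair differed beyond counting error, and 5C-Oct4GFP+ was lowest. Ephb3, its partner in the crypt, ranged from 10.6 TPM in 5C-Oct4GFP+ (primed) to 33.4 in 5C-Oct4GFP-. Between these ends it was at 20.7 TPM in 5C-Oct4GFP+, 19.5 in R1 ESCs-primed, 18.6 in 5C-Oct4GFP+ (naive), 16.1 in mES-Oct4GFP+ and 14.7 in mES-Oct4GFP-. None of these 5 differed from its neighbour beyond counting error. Further apart in this run, 5C-Oct4GFP+ was 1.29-fold above mES-Oct4GFP+ (1.08 to 1.55). Ephb4, the receptor of venous endothelium for ephrin-B2, was at 99.1 TPM in 5C-Oct4GFP- and 40.9 in 5C-Oct4GFP+, at 56.6 in mES-Oct4GFP- and 48.8 in mES-Oct4GFP+, and at 29.5 in 5C-Oct4GFP+ (naive), 28.5 in R1 ESCs-primed and 23.9 in 5C-Oct4GFP+ (primed). It was the most abundant EphB transcript in each of the 7 libraries. Ephb3 and Ephb4 peaked in 5C-Oct4GFP-, and so did Ephb2 on TPM, where the next library lay within counting error, but with FPKM it was highest in 5C-Oct4GFP+ (primed), at 8.97 against 8.78.

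Of the ephrin-A ligands, Efna1, a ligand of EphA2, stood out in 1 library. It was at 24.9 TPM in mES-Oct4GFP-, against 6.83 in 5C-Oct4GFP-, 6.19 in mES-Oct4GFP+, 4.51 in 5C-Oct4GFP+ (naive), 3.78 in 5C-Oct4GFP+ (primed), 2.96 in R1 ESCs-primed and 2.12 in 5C-Oct4GFP+. Below the first library no neighbouring pair differed beyond counting error, on expected counts between 16 and 41. The ends of that run did differ, with 5C-Oct4GFP- 3.22-fold above 5C-Oct4GFP+ (1.79 to 6.05). Efna3 had the same high library, at 44.5 TPM, and lay between 13.3 TPM in 5C-Oct4GFP+ and 21.1 in 5C-Oct4GFP+ (naive) in the other 6. Both genes lie close together on the minus strand of chromosome 3, Efna1 at chr3:89271733-89281142 and Efna3 at chr3:89313899-89322965. Their neighbour on the same strand, Efna4 (chr3:89333390-89338028), did not share the pattern, with 25.1 TPM in mES-Oct4GFP- and 35.2 in mES-Oct4GFP+. Efna3 shares 344 of 2434 exonic bases with an antisense gene, Gm15998, that was at most at 1.11 TPM.

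The ephrin-B ligands had the widest swings after Epha1. Efnb1, an X-linked gene whose loss disturbs cell sorting in the skull, was at 88.9 TPM in mES-Oct4GFP-, 29.6 in 5C-Oct4GFP-, 9.63 in R1 ESCs-primed, 4.62 in mES-Oct4GFP+, 3.44 in 5C-Oct4GFP+ (primed), 3.41 in 5C-Oct4GFP+ and 1.87 in 5C-Oct4GFP+ (naive). Its 3 highest libraries were also the 3 highest in summed fibroblast markers, in the same order. Below these the orders parted, since 5C-Oct4GFP+ (primed) had more of these markers than mES-Oct4GFP+ (70.7 against 13.5 TPM) but less Efnb1. Thy1 aside, each of these markers was highest in mES-Oct4GFP-, with Col1a1 at 160 TPM there, 45 in 5C-Oct4GFP- and 40.5 in R1 ESCs-primed. Their part in the Efnb1 levels was not tested, and in such bulk samples fewer cells of a type and less RNA per cell cannot be told apart.

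Efnb2, the ephrin of arterial endothelium and the ligand of EphB4, was at 42.5 TPM in R1 ESCs-primed, 34.8 in both mES-Oct4GFP- and 5C-Oct4GFP+ (primed), 27.6 in 5C-Oct4GFP+, 17.7 in 5C-Oct4GFP-, 1.89 in mES-Oct4GFP+ and 1.29 in 5C-Oct4GFP+ (naive). The last 2 rested on 23 and 26 expected counts, and they lay well below the other 5. Endothelial markers (6 genes) summed to 3.39 TPM in 5C-Oct4GFP+ (primed), where Emcn was at 0 and Cdh5 at 0.04, and to 5.81 in R1 ESCs-primed. They summed to between 37.8 and 52.5 TPM in mES-Oct4GFP-, 5C-Oct4GFP+ and 5C-Oct4GFP-. The sum was 11.8 TPM for mES-Oct4GFP+ and 10.8 for 5C-Oct4GFP+ (naive). Tek led in both Oct4GFP- libraries, at 19.9 TPM with mES medium and 40.4 with 5C medium. The 5C-Oct4GFP+ sum came mostly from Vwf (25.5 TPM) and Tek (22.7 TPM). The mES-Oct4GFP- library also held Cdh5 at 7.07 TPM, Esam at 5.36 and Tie1 at 2.34, and 5 of its 6 markers reached 1 TPM. The part of these markers in the Efnb2 levels was not tested. Across the 10 genes, 27 of the 60 steps between neighbouring libraries in these orders had an interval that included 1.

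The next comparisons ask what the 2 media did to each sorted fraction. A gene was counted as different at 2-fold or more on the log2(TPM + 1) scale with at least 1 TPM in either library. On that scale the fold of a weakly expressed gene comes out smaller than its ratio of TPM. The 9 comparisons draw on the same 7 libraries and are not independent of each other. In Oct4GFP+ cells, 3 of the 10 members were higher with 5C than with mES medium and 2 were lower, beside 13.7% of 15196 genes that were higher and 13.5% that were lower. Efnb2 was 14.6-fold higher (interval 9.64 to 23.2), Epha1 11.4-fold (6.22 to 23.1) and Epha2 3.17-fold (2.89 to 3.48). Efna1, at 0.343 of its level in mES medium (0.177 to 0.645), and Ephb2, at 0.402 (0.304 to 0.529), were the lower pair, and Ephb2 fell short of 2-fold when FPKM replaced TPM. The median difference of the 10 was -0.25 on the log2 scale and that of all genes -0.06.

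In Oct4GFP- cells the same change of medium gave 2 higher and 4 lower members, with 9.68% of 15859 genes higher and 10.1% lower. Ephb2 was 2.30-fold higher (1.93 to 2.75) and Ephb3 2.27-fold (1.95 to 2.66), while on length-free counts both were under 2-fold, at 0.89 and 0.87 on the log2 scale. The lower members were 3 ephrins and Epha2. Relative to mES medium, Efna1 was at 0.274 (0.189 to 0.389), Efnb1 at 0.332 (0.296 to 0.373), Epha2 at 0.361 (0.329 to 0.395) and Efna3 at 0.393 (0.316 to 0.487). The members' median difference was -0.79, against 0.03 for all genes. Summed fibroblast markers were lower with 5C medium in this fraction as well, at 258 against 579 TPM. Thy1 among them went the other way, at 53.3 TPM with 5C medium against 8.73 with mES medium. The part of these markers in the differences was not tested.

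Between the sorted fractions of mES medium, 1 member was higher and 6 were lower in Oct4GFP+ cells, beside 17.9% of 16294 genes higher and 28.8% lower. Epha4 was the higher one, by 6.16-fold (5.34 to 7.13). Efnb1 was 19.2-fold higher in the Oct4GFP- fraction (14.5 to 26.2), Efnb2 18.4-fold (12.2 to 29.3) and Epha1 18.1-fold (9.98 to 36.8). Efna1, Efna3 and Epha2 were also higher there, by 2.61-fold to 4.02-fold. With a median of -1.39 against -0.15 for all genes, this was the comparison in which the members lay furthest from 0.

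With 5C medium, 2 members were higher and 4 lower in Oct4GFP+ than in Oct4GFP- cells, where 8.45% of 15675 genes were higher and 22.6% lower. Epha4 was 6.6-fold higher (5.49 to 7.996), close to its fold in mES medium. Epha2 was 3.37-fold higher (3.09 to 3.67), the opposite direction to mES medium. The lower ones were Efnb1, 8.67-fold higher in Oct4GFP- cells (6.62 to 11.5), Ephb2 (5.80-fold, 4.58 to 7.40), Efna1 (3.22-fold, 1.79 to 6.05) and Ephb4 (2.42-fold, 2.24 to 2.62). Epha1 and Efnb2, which differed about 18-fold between the fractions of mES medium, were under 2-fold here, at -0.34 and 0.62 on the log2 scale. The median was -0.52 for the members and -0.25 for all genes.

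**Figure D2:**
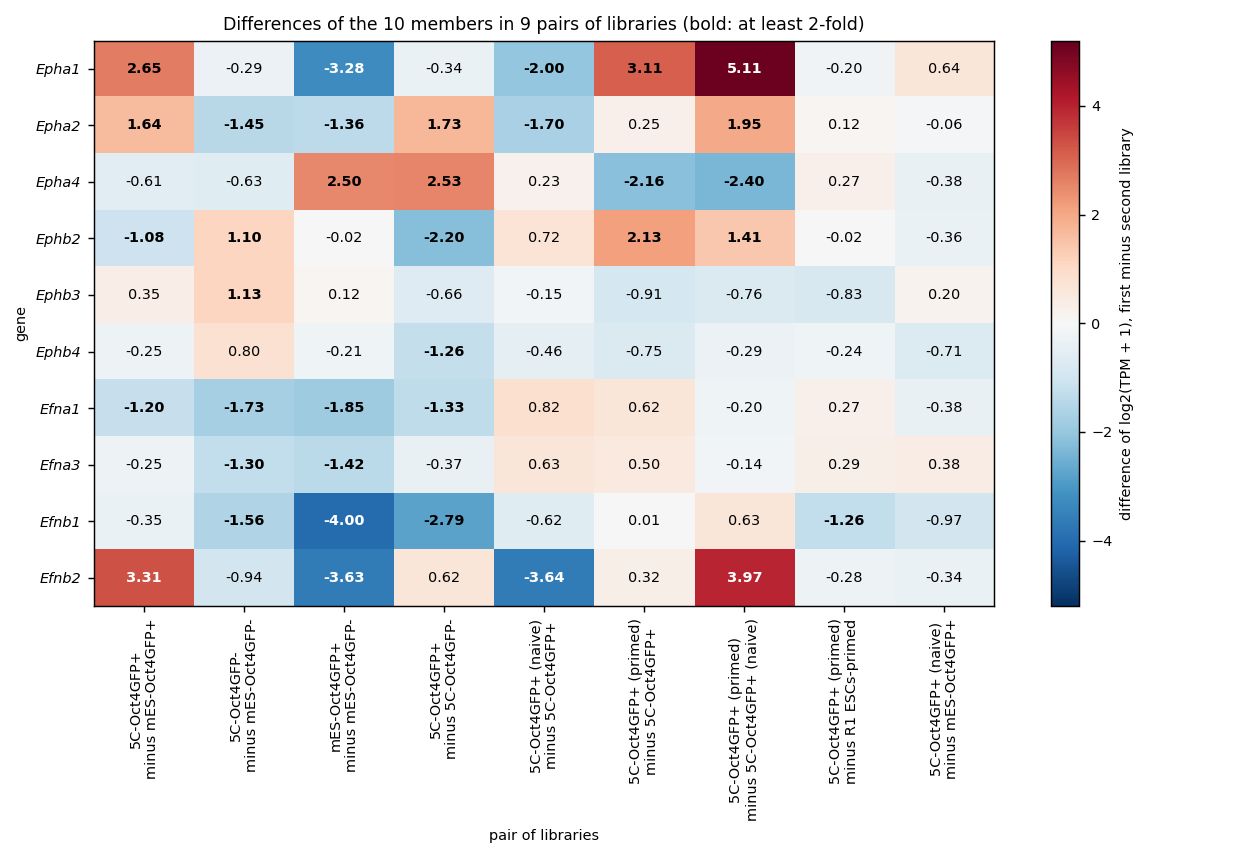
Difference of log2(TPM + 1) of each of the 10 genes (rows of the grid) in 9 pairs of libraries (columns), first minus second library, with differences of at least 2-fold in bold. Epha1 reaches 5.11 between primed and naive cells and -3.28 between the fractions of mES medium, and the last 2 columns hold a single bold value, -1.26 for Efnb1.

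The next comparisons set the cells converted to the naive and primed states beside the parent 5C-Oct4GFP+ cells. The parent library has 0 passages and both converted libraries are labelled with 20. Change of medium and passage therefore cannot be told apart in the comparisons with the parent. In naive medium no member was higher than in the parent 5C-Oct4GFP+ cells and 3 were lower, beside 10% of 14863 genes higher and 17.5% lower. Efnb2 was at 0.0468 of the parent level (0.0303 to 0.0692), Epha1 at 0.186 (0.125 to 0.268) and Epha2 at 0.302 (0.278 to 0.328). The 5C-Oct4GFP+ library used here also entered the comparison with mES medium. The median was -0.30 for the members and -0.10 for all genes.

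In primed medium, 2 members were higher and 1 was lower than in the parent cells, where 13.7% of 15067 genes were higher and 16.1% lower. Epha1 was 9.29-fold higher (8.07 to 10.7) and Ephb2 5.54-fold (4.42 to 6.999), while Epha4 was 4.94-fold lower (4.12 to 5.97). On length-free counts the Epha4 difference went from -2.16 to -3.13 on the log2 scale. Efnb2 and Epha2, already high in the parent cells, were 1.26-fold and 1.19-fold higher. The medians were 0.29 and 0.06.

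Set directly against each other, primed cells were higher than naive cells in 4 members and lower in 1, beside 22.2% of 15249 genes higher and 16.7% lower. Epha1 was 50.1-fold higher (35.5 to 72.9) and lay at percentile 99.7 of all genes tested. Efnb2 was 27-fold higher (18.3 to 41.5), at percentile 98.9. Epha2 was 3.94-fold higher (3.63 to 4.27) and Ephb2 2.96-fold (2.40 to 3.67). Epha4 was the lower one, 5.83-fold (4.86 to 7.05). Efna1, Efna3, Efnb1, Ephb3 and Ephb4 differed by less than 2-fold, and for Efna1 and Efna3 the interval of the ratio included 1. The median was 0.25 for the members and 0.14 for all genes.

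**Figure D3:**
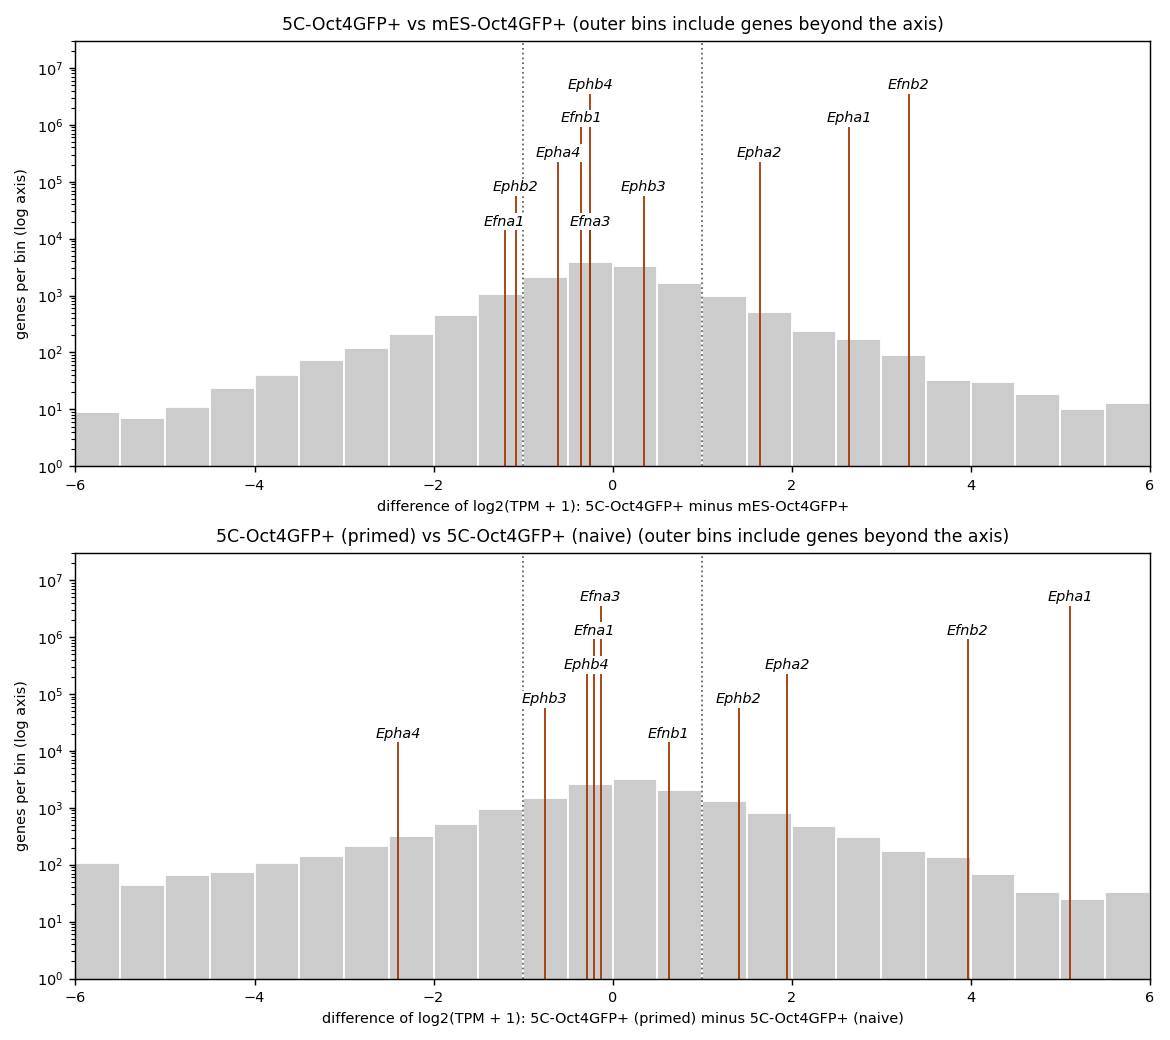
Number of genes (log axis) by difference of log2(TPM + 1) in bins of 0.5, for 5C over mES medium in Oct4GFP+ cells (upper panel) and for primed over naive cells (lower panel), with lines at the 10 members and dotted lines at 2-fold. Epha1 at 5.11 and Efnb2 at 3.97 lie in the right tail of the lower panel, and Epha4 at -2.40 in the left.

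The last pair of comparisons set the converted cells beside the nearest other library of their state. In the naive pair, 5C-Oct4GFP+ (naive) is labelled with 20 passages and mES-Oct4GFP+ has 0, and their media differ. Medium and passage therefore cannot be told apart in that pair either. Between 5C-Oct4GFP+ (primed) and R1 ESCs-primed no member was higher and 1 was lower, beside 2.3% of 14600 genes higher and 5.09% lower. Efnb1 was the lower one, at 0.357 of its R1 level (0.262 to 0.485), and fibroblast markers were lower too, with sums of 70.7 and 203 TPM. The part of these markers in the difference was not tested. Epha1 differed by 0.869 (0.813 to 0.928) and Epha2 by 1.08 (1.03 to 1.14) as ratios of primed 5C cells to R1 cells. Between 5C-Oct4GFP+ (naive) and mES-Oct4GFP+ no member was 2-fold higher or lower, with 2.49% of 14477 genes higher and 6.27% lower. With a pseudocount of 0.1 in place of 1, Epha1 (1.01) and Efnb1 (-1.26) passed 2-fold, and on length-free counts Efnb1 did (-1.04). After median-ratio rescaling, 476 of these genes were higher and 748 lower, in place of 361 and 908. Efnb1 came nearest, at 0.405 of its mES-Oct4GFP+ level (0.245 to 0.657) and -0.97 on the log2(TPM + 1) scale. The members' medians were -0.11 and -0.35, against -0.03 and -0.16 for all genes.

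Summed over the whole family, the balance of classes moved with the groups, since TPM is per length and can be added between genes. EphA transcripts, 9 genes, summed to 304 TPM in R1 ESCs-primed and 299 in 5C-Oct4GFP+ (primed), against 88.5 in 5C-Oct4GFP+ (naive) and 81 in 5C-Oct4GFP-. Epha2 held 52.8% of that sum in 5C-Oct4GFP+ (primed) and 71.7% in 5C-Oct4GFP+, whereas Epha4 held 49.6% in 5C-Oct4GFP+ (naive) and 55.5% in mES-Oct4GFP+. The leading EphA transcript was thus Epha4 in both naive-type libraries and Epha2 in the other 5. EphA genes made up 83.8% of receptor TPM for 5C-Oct4GFP+ (primed) and 80.1% for R1 ESCs-primed, but 32.6% for 5C-Oct4GFP-. The 3 ephrin-B genes summed to 130 TPM in mES-Oct4GFP- and to 5.2 in 5C-Oct4GFP+ (naive), a ratio of 24.9 between the highest and lowest library. For EphA, EphB and ephrin-A genes the same ratio was 3.75, 2.90 and 3.27. Ephrin-A genes accordingly made up 92.8% of ephrin TPM in 5C-Oct4GFP+ (naive) and 48.6% in mES-Oct4GFP-. Receptor TPM exceeded ephrin TPM in each library, by 1.03-fold in mES-Oct4GFP- and by 3.52-fold in 5C-Oct4GFP+.

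**Figure D4:**
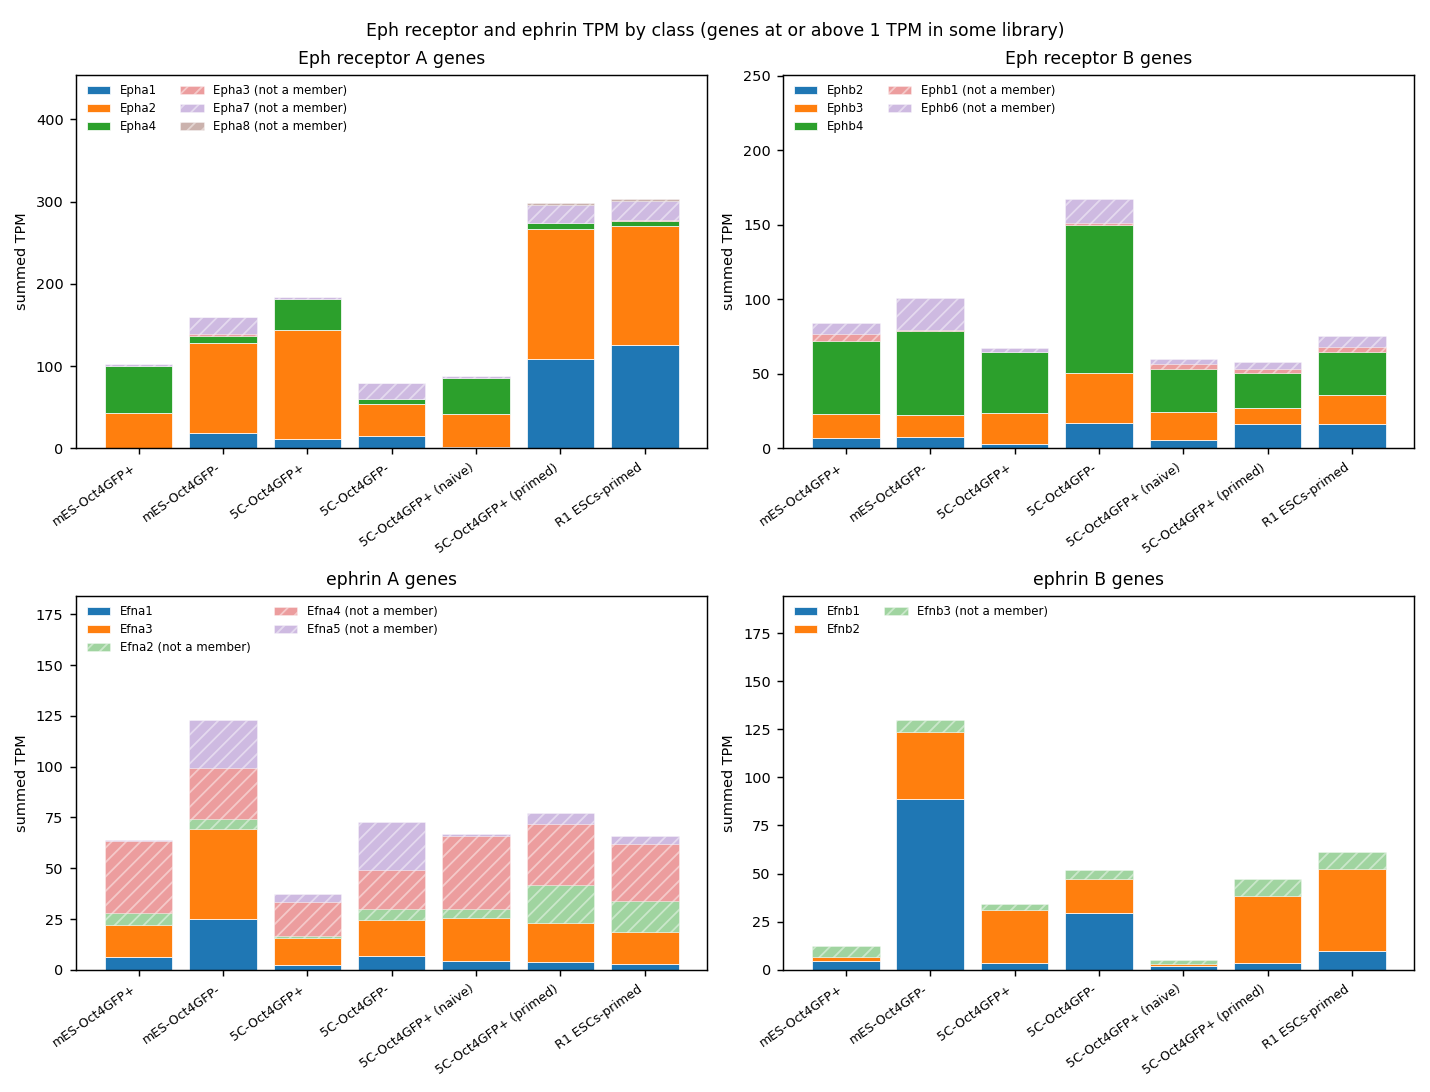
Summed TPM of EphA, EphB, ephrin-A and ephrin-B genes in the 7 libraries, stacked by gene, with genes outside the 10 members hatched and pale and with genes under 1 TPM throughout left out. The EphA stack is highest in both primed libraries at 299 and 304 TPM, and the ephrin-B stack falls to 5.2 TPM in 5C-Oct4GFP+ (naive).

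The 12 family genes outside the list included some with the same contrasts. Epha7 was at 2.16 TPM in 5C-Oct4GFP+ (naive) and 21.8 in 5C-Oct4GFP+ (primed), 10.1-fold higher (7.74 to 13.4), and was near 20 TPM in both Oct4GFP- libraries, at 19.7 and 18.3. Efna2 was 4.52-fold higher in primed than in naive cells (3.22 to 6.48), Efna5 5.91-fold (3.56 to 10.5) and Efnb3 4.33-fold (2.93 to 6.62). Efna5 was also at 23.2 TPM in mES-Oct4GFP- and 23.5 in 5C-Oct4GFP-, against 0.53 in mES-Oct4GFP+. Efna4 supplied more ephrin-A TPM than any other ephrin-A gene in 5 of the 7 libraries, and ranged from 16.3 to 36.2 TPM. Ephb6, a receptor without kinase activity, was highest in mES-Oct4GFP- (21.4 TPM) and 5C-Oct4GFP- (16.1). Ephb1 was low but not steady, from 0.41 TPM in 5C-Oct4GFP+, on 9 expected counts, to 4.47 in mES-Oct4GFP+, 10.9-fold higher (5.41 to 24.9). Epha3 peaked at 2.31 TPM and Epha8 at 1.96, and Epha5, Epha6 and Epha10 were under 1 TPM in each library. Of the 8 of these 12 genes that reached 1 TPM in naive or primed cells, 5 were higher in primed cells and none was lower, beside 22.2% and 16.7% of all genes, with a median of 1.61 on the log2 scale against 0.14. Other comparisons were unlike those of the members. With 5C against mES medium in Oct4GFP+ cells, 1 of 7 was higher and 4 were lower, beside 13.7% and 13.5% of all genes. In naive medium, 3 of 7 were higher than in the parent 5C-Oct4GFP+ cells and 1 was lower, beside 10% and 17.5% of all genes.

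Genes that act around the receptors were described from a list of 55: kinases and adaptors, exchange factors and activating proteins of small GTPases, the GTPases with their effectors, PDZ partners of ephrin-B, and the proteases that cut Ephs and ephrins. Between primed and naive cells, 17 of the 52 that reached 1 TPM were higher and 2 were lower, beside 22.2% and 16.7% of all genes, with a median of 0.57 against 0.14. Grb10, an adaptor that binds receptor kinases, was 33.1-fold higher in primed cells (28.9 to 38.2). Mmp14, a membrane protease that can cut EphA2, was 12.5-fold higher (8.84 to 18.2), and Grip1, a PDZ scaffold that binds ephrin-B tails, 12-fold (7.57 to 20.2). Mmp14 was highest in the Oct4GFP- libraries, at 163 TPM with 5C medium and 128.5 with mES medium. Summed fibroblast markers were also higher in primed than in naive cells, at 70.7 against 8.16 TPM. The part of these markers in the pathway differences was not tested. Of the PDZ partners 4 of 7 were higher, Sdcbp, Grip1, Afdn and Tjp1, and of the 7 GTPases and effectors 1, Rac1.

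With 5C against mES medium in Oct4GFP+ cells, 6 of 53 pathway genes were higher and 3 lower, beside 13.7% and 13.5% of all genes, with a median of -0.01 against -0.06. Grb10 was 7.91-fold higher (6.96 to 9.02) and Mmp14 5.08-fold (3.61 to 7.35), while Yes1, a Src family kinase, was at 0.275 of its level in mES medium (0.248 to 0.304). In Oct4GFP- cells 1 of 54 was higher and 4 were lower, beside 9.68% and 10.1% of all genes, with a median of -0.08 against 0.03. Dok1, a docking protein, was at 0.274 (0.220 to 0.340), Ngef, an exchange factor downstream of EphA4, at 0.272 (0.168 to 0.425), and Grb10 at 0.428 (0.415 to 0.441). Between the fractions of mES medium, 22 of 54 were lower in Oct4GFP+ cells and 3 were higher, beside 28.8% and 17.9% of all genes, with a median of -0.72 against -0.15. These 22 included the proteases Adam10, Adam12 and Mmp14.

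The genes whose levels ran most like Epha1 and Efnb1, the receptor and the ephrin with the widest range, were sought among 11737 genes outside the family that reached 10 TPM. The measure was Pearson's r of log2(TPM + 1) over 7 libraries, which share depth and preparation with the member, so r is a description. For Epha1 these were Mdfi (r = 0.99), Mrpl53 (r = 0.99) and Fgf5 (r = 0.99). Fgf5, a marker of the primed state, went from 0.09 TPM in 5C-Oct4GFP+ (naive) to 175 in 5C-Oct4GFP+ (primed), whereas Mrpl53, a mitochondrial ribosomal gene, moved only between 82.7 and 118 TPM. For Efnb1 they included Tmem65 (r = 0.99) and Arhgef12 (r = 0.99). Arhgef12, an exchange factor for small GTPases, was at 57.2 TPM in mES-Oct4GFP- and 34.6 in 5C-Oct4GFP-, and between 11.8 and 17.4 TPM in the others.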

How the data were processed

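Total RNA was made into TruSeq RNA libraries and sequenced on an Illumina MiSeq. The submitters' processing notes name Bowtie, RSEM and build mm10 (versions not given in the sources used here). The deposited expected counts are estimated reads per Ensembl gene, not whole and not normalized, and are the depth given above. The deposited TPM values are counts per effective length, brought to an equal total across libraries, and the deposited FPKM values are scaled to mapped fragments. The deposited tables also give an average transcript length per gene. Of 29267 identifiers, 28756 matched a symbol, all 10 members among them, and gene positions were taken from GENCODE M21 (GRCm38).

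The 10 members and all lists and motifs were chosen with earlier results of these data known. Named genes outside the members were the family genes over 1 TPM, the 3 pathway genes with the largest difference in each of 3 comparisons, the 3 genes most like the member receptor and ephrin of widest range and the marker genes. Overlapping or adjacent genes, and a few pathway genes in counts of 6 or fewer, were named after their values were seen. Some genes that these rules pick are not reported here. Differences were taken on log2(TPM + 1) with a minimum of 1 TPM in either library. For ratios of TPM, 95% intervals (exact Clopper-Pearson) were computed after rounding the expected counts. Levels have exact Poisson intervals in the plot. PCR copies are not independent molecules, and the intervals cover counting error only. With 1 library per group no model was fitted. Alternatives were a pseudocount of 0.1, a minimum of 5 TPM or none, median-ratio rescaling and FPKM, and, chosen after seeing the data, length-free counts (expected counts over the library total). The calculations were tested on simulated data. The software was Python 3.11.15 with scipy 1.17.1, pandas 2.3.3, numpy 2.4.6 and matplotlib 3.10.9.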

Additional observations from a re-analysis of the deposited data

Results flagged for a closer look

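For 2 members the same contrast went at least 2-fold in opposite directions in the pair of groups where it could be read. Epha2 was higher with 5C than with mES medium in Oct4GFP+ cells (133 against 41.9 TPM) and lower in Oct4GFP- cells (39.4 against 109 TPM), so that the 2 differences lay 3.09 apart on the log2(TPM + 1) scale. Read across the sort, the same 4 libraries gave Epha2 as lower in Oct4GFP+ than in Oct4GFP- cells with mES medium and higher with 5C medium, a gap of -3.09. Ephb2 was lower with 5C medium in Oct4GFP+ cells (2.96 against 7.37 TPM) and higher in Oct4GFP- cells (17.2 against 7.46 TPM), a gap of -2.18. For Ephb2 the first difference was under 2-fold with FPKM, at -0.94, and the second was under 2-fold on length-free counts, at 0.89. The widest gap of any member, 4.25 for Efnb2, fell outside this rule. Efnb2 was 14.6-fold higher with 5C medium in Oct4GFP+ cells. In Oct4GFP- cells it was at 0.507 of its level in mES medium (0.440 to 0.583), or -0.94 on the log2(TPM + 1) scale. With 1 library in each group these differences between differences were not tested.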

How the results depend on the processing

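Of 36 differences of at least 2-fold among the 90 values of 10 members in 9 comparisons, 36 stayed at 2-fold in the same direction with a pseudocount of 0.1, with a minimum of 5 TPM, with no minimum and after median-ratio rescaling, 35 with FPKM and 34 on length-free counts. None of these reversed, while the under 2-fold difference of Epha4 between 5C-Oct4GFP+ (primed) and R1 ESCs-primed turned from 0.27 to -0.69 on length-free counts. Signs also turned, under at least 1 alternative, for 5 differences that were at most 0.12 in size. Efna1 in naive against 5C-Oct4GFP+ cells went from 0.82 to 1.05 with a pseudocount of 0.1. Between 5C-Oct4GFP+ (naive) and mES-Oct4GFP+ the members counted as different went from 0 to 2 with a pseudocount of 0.1 (Epha1 at 1.01 and Efnb1 at -1.26 on the log2 scale) and to 1 on length-free counts (Efnb1 at -1.04). The ratio of the highest to the lowest library went from 3.75 to 3.99 for summed EphA genes after rescaling, and from 2.90 to 2.70 after rescaling, 2.71 with FPKM and 2.53 on length-free counts for summed EphB genes. Rescaling moved the median of all genes from -0.25 to -0.10 between the fractions of 5C medium, from 0.14 to 0.01 between primed and naive cells, and from -0.16 to -0.04 between 5C-Oct4GFP+ (naive) and mES-Oct4GFP+. Counts over all genes moved by more than 1.5 times most in the 2 comparisons with the fewest. Between 5C-Oct4GFP+ (primed) and R1 ESCs-primed, 336 higher genes became 609 with a pseudocount of 0.1, 164 with a minimum of 5 TPM and 199 with FPKM, and 743 lower genes became 1237, 370 and 424. Between 5C-Oct4GFP+ (naive) and mES-Oct4GFP+, 361 higher genes became 592, 158 and 229, and 237 on length-free counts, and 908 lower genes became 1640, 446 and 417. A minimum of 5 TPM also took 2055 lower genes to 1305 for 5C over mES medium in Oct4GFP+ cells, 1535 higher genes to 1007 for the same in Oct4GFP- cells, and 1486 higher genes to 962 for naive over 5C-Oct4GFP+ cells, since fewer genes are then tested. No paired analysis was possible because each group has 1 library, and for the same reason no replicate could be left out.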
